A study of Mus musculus with 14 samples.

Results

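The genes described here are the 10 genes of the myostatin, activin and follistatin axis, out of 19938 genes read by an array probe set that carries a single gene symbol. They are the ligand genes Mstn, Gdf11, Inhba and Inhbb, the receptor genes Acvr2a, Acvr2b and Acvr1b, the antagonist genes Fst and Fstl3, and the inhibitory Smad gene Smad7. Each of the 10 has exactly 1 such probe set, so all 10 were measured and none was dropped. The study followed the plantaris, a fast calf muscle, of male C57BL/6J mice aged 5 months under overload. The overload came from synergist ablation, an operation that takes away neighbouring muscles with the same function and after which the plantaris enlarges. Muscle was taken at days 1, 3, 5, 7, 10 and 14 of overload and at day 0. Each day had 2 Affymetrix Mouse Gene 1.0 ST arrays, 1 for pooled right muscles and 1 for pooled left muscles, and a pool held muscle of 6 animals. All animals share strain, sex and age. No sham-operated animals were analysed here, and overload cannot be told apart from the operation itself or from elapsed time.

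Myostatin, activins and Gdf11 are secreted ligands of the transforming growth factor beta family. They bind the type II receptors Acvr2a and Acvr2b, which recruit a type I receptor such as Acvr1b, and the active complex phosphorylates Smad2 and Smad3, which enter the nucleus with Smad4 and regulate transcription. Follistatin and follistatin-like 3 bind the ligands outside the cell and block them, and Smad7 acts inside the cell against the type I receptor. In skeletal muscle myostatin is made largely by the fibres themselves and restrains their growth, and animals that lack it have enlarged muscles.

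Levels are log2 of the deposited intensity. Each difference is a day's mean log2 level minus that of another day, given ± SE from 1 limma fit over all 14 arrays, with 2 pools at each day. A gene is called at a Benjamini-Hochberg adjusted p under 0.05 over all 19938 genes. Array medians lay between 242.8 and 254.9 and intensities between 5.9 and 29501.5; precision is limited by the number of arrays. Whether the 2 pools of a day were taken from 1 set of animals is not stated in the labels, and the p-values therefore reflect spread between pools alone, some of which may be technical. The tissue label was borne out by the 11 fast fibre markers, which were all measured and none of which lay in the dimmest of 3 equal classes of genes; Ckm, the muscle creatine kinase, read 14.30 on both day 0 arrays. A pair of pools stood apart from the others: the day 0 left pool and the day 1 right pool had summed hepatocyte marker intensities of 76030 and 77270, against 4752 to 41370 in the other 12 pools. For the genes of the myostatin, activin and follistatin axis, calls that ended without both of these pools are named with the result. For all other genes named, single calls were not checked in this way. Silence about those genes does not mean that a call held.

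All 10 genes were called by the moderated F test over the 6 days against day 0, where 71.3% of all genes were called. The adjusted p lay between 4.35e-07 for Mstn and 0.0276 for Acvr2a. At day 1, 4 of the 10 were higher than at day 0 and 4 were lower, against 20.3% and 34.7% of all genes. The counts were 4 higher and 5 lower at day 3 (24.2% and 23.4% of all genes) and 4 and 4 at day 5 (27% and 38.1%). They were 4 and 4 at day 7 (28.5% and 37.8%), 2 and 4 at day 10 (23.6% and 27.5%) and 3 and 4 at day 14 (21.4% and 20.7%). The median difference of the 10 genes lay between -0.10 and -0.02 on the 6 days, beside medians over all genes of -0.16 to -0.07. Changes of more than 2-fold were called for 1 gene at days 1 and 10, where 9.29% and 9.24% of all genes passed, and for 2 genes at days 3, 5, 7 and 14, where 11.8%, 12.9%, 15.3% and 6.18% did. With calls this common over all genes, these counts are not read as a result about the 10 genes; the size and the timing of each follow.

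**Figure D1:**
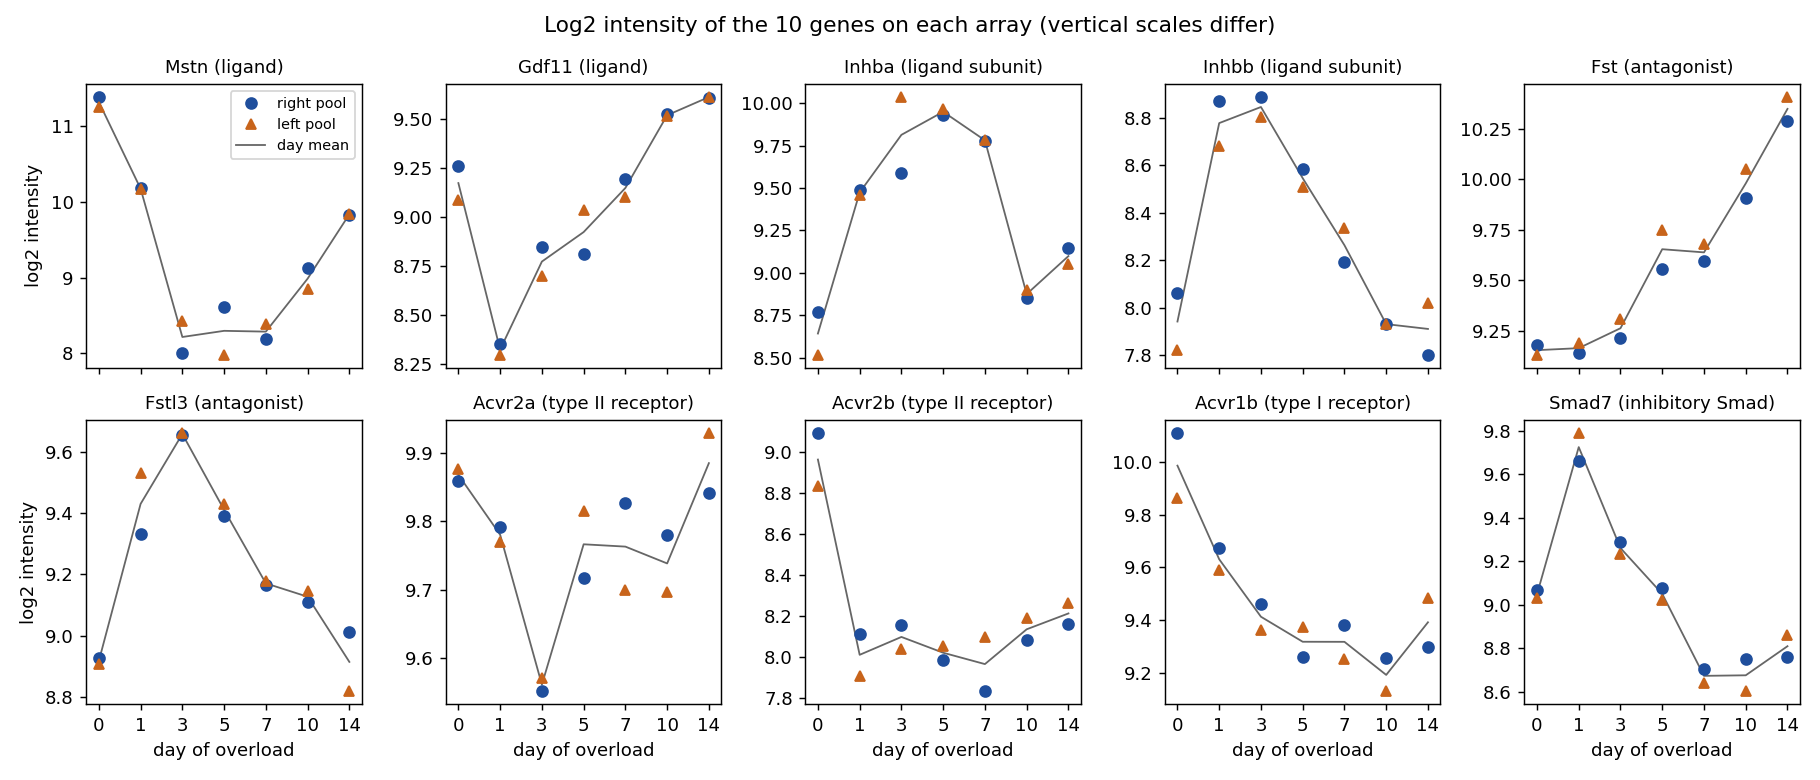
Log2 intensity of the 10 genes (vertical axes, with scales that differ between panels) on each of the 14 arrays against day of overload (horizontal axis, days 0 to 14); circles are right pools, triangles are left pools and the line joins the day means. Mstn lay at 11.25 and above on both day 0 arrays and between 7.97 and 8.62 on the 6 arrays of days 3 to 7, while Fst lay highest on both day 14 arrays.

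Among the ligands, Mstn was far below day 0 throughout, Gdf11 was lower early and higher late, and the activin subunit genes Inhba and Inhbb were higher during the first week. Mstn fell 8.63-fold by day 3, and Inhba stood 2.47-fold above day 0 at day 5. The 250 bases before the gene starts of the 3 ligand genes whose day means spanned the widest range are shown here, because their time courses ran in different ways; they are RefSeq sequences of build GRCm38.p6, printed along the gene's strand. Capitals mark E-boxes, the letters CANNTG that the myogenic factors of the MyoD family bind. The Mstn window is chr1:53061390-53061639 on the plus strand, the Gdf11 window is chr10:128891719-128891968 on the minus strand and the Inhba window is chr13:16011601-16011850 on the plus strand.
Mstn: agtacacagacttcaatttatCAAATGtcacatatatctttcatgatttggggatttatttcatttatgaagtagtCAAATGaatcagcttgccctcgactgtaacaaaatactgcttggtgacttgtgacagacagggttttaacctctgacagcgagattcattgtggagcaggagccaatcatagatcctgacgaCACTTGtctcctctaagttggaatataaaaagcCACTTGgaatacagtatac
Gdf11: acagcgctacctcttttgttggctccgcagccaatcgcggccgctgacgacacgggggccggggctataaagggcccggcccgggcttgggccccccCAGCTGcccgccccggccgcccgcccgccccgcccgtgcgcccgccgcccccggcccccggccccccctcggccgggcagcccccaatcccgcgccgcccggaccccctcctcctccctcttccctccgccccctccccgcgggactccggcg
Inhba: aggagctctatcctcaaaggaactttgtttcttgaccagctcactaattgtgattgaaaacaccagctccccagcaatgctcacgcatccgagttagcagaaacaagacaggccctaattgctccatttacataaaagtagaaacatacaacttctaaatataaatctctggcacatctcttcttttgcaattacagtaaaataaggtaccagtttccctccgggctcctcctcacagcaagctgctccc

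The Mstn window held 4 E-boxes, the Gdf11 window 1 and the Inhba window 0. Of all 32851 promoters of this length, 66.2% held at least 1 E-box, the share against which its presence in 2 of these 3 windows is to be read. Each motif was searched on both strands. The Smad element CAGAC occurred 2 times in the Mstn window and in 42.2% of all promoters. The letters TGANTCA, a loose form of the AP-1 site with any middle base in place of C or G, occurred in 6.75% of all promoters. They occurred 1 time in the Mstn window, as TGAATCA, which is not the strict site. This match overlapped the E-box that starts 174 bases before the gene start. The cAMP response element TGACGTCA, present in 1.55% of all promoters, was in none of the 3. Each of the 3 windows held the TATA box letters TATAAA, found in 12.4% of all promoters. Those of Mstn began 29 bases before the start, those of Inhba 91 and those of Gdf11 185. Of the 10 genes, 8 had a promoter entry. E-boxes were also found in those of Fstl3 (3) and Acvr1b (1). These matches describe letters only, and binding was not measured.

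Mstn read 11.39 and 11.25 at day 0 (right and left pool), 10.19 and 10.17 at day 1, 7.997 and 8.43 at day 3, 8.62 and 7.97 at day 5, 8.18 and 8.39 at day 7, 9.12 and 8.85 at day 10, and 9.83 and 9.85 at day 14. Both pools of every later day lay below both pools of day 0, with the 6 pools of days 3 to 7 lowest, the pools of day 10 next and those of days 14 and 1 above them. Against day 0, Mstn differed by -1.15 ± 0.193 at day 1 (adjusted p = 0.000421), -3.11 at day 3 (1.7e-07) and -1.49 at day 14 (9.67e-05), with the same SE at each day. The differences of days 5, 7 and 10 were -3.03, -3.04 and -2.34. Only 10 of all 19938 genes had a lower difference at day 3, where Mstn ranked 11 from the lowest; on days 5, 7, 10 and 14 it ranked 13, 21, 31 and 168. It was called at each of the 6 days in each alternative tried, the 2-fold rule and the omission of any 1 pool included.

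The fall of Mstn took place in steps at day 1 and between days 1 and 3 (-1.96 ± 0.193, adjusted p = 2.47e-05), where 13.2% of all genes were lower. Days 3, 5 and 7 did not differ from each other beyond their spread: day 5 minus day 3 was 0.08, with a 95% interval from -0.34 to 0.51. Recovery followed, with day 10 above day 7 by 0.70 ± 0.193 (adjusted p = 0.0306) and day 14 above day 10 by 0.85 ± 0.193 (adjusted p = 0.033). Each of these late steps lost its call when any 1 of its own 4 pools was left out, at adjusted p of 0.0536 to 0.212 for the first and 0.0927 to 0.239 for the second. The day means were 9.84 at day 14 and 10.18 at day 1, a difference that missed the threshold (adjusted p = 0.189), and at day 14 Mstn was still 2.80-fold below day 0.

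All markers of fast fibres were lower at days 3 and 7, as Mstn was. Most of them were not called at days 1 and 14, when Mstn was lower too. Markers of slow fibres went both ways. The fast fibre markers were far brighter than Mstn, with mean log2 levels from 12.68 (Mylpf) to 14.30 (Acta1). The size of their differences was not compared with that of Mstn. Of the 11 fast fibre markers, 4 were lower at day 1 and 7 were not called. At day 3, 11 were lower, with a median difference of -0.59, and at day 7, 11 were lower. At day 14, 3 were lower and 8 were not called. At no day was any fast fibre marker higher. Their summed intensities were 182200 and 184300 at day 0, 118300 and 120400 at day 3, 101500 and 113800 at day 7, and 161800 and 167700 at day 14. Of the 7 slow fibre markers, 2 were higher and 3 lower at day 3, 4 higher and 2 lower at day 7, and 5 higher and 1 lower at day 14. Their summed intensities were 11060 and 10750 at day 0, 8124 and 8047 at day 3, 18510 in both pools at day 7, and 21940 and 22040 at day 14. No marker of either list lay in the dimmest of 3 equal classes of genes. Their part in the fall of Mstn was not tested, and in RNA of whole muscle fewer cells of a type and less RNA per cell cannot be told apart.

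Gdf11 is the closest relative of Mstn and shares its receptors. It read 9.26 and 9.08 at day 0, 8.35 and 8.30 at day 1, 8.85 and 8.70 at day 3, 8.81 and 9.04 at day 5, 9.20 and 9.10 at day 7, 9.52 and 9.52 at day 10, and 9.61 and 9.61 at day 14. Both pools lay below both day 0 pools at days 1, 3 and 5 and above them at days 10 and 14, and the pools of day 7 overlapped those of day 0. The negative differences were -0.85 ± 0.0935 at day 1 (adjusted p = 1.73e-05), -0.40 at day 3 (0.00393) and -0.25 at day 5 (0.0355). Day 7 differed by -0.02, day 10 by 0.35 (0.00979) and day 14 by 0.44 (0.00307). Under quantile normalization Gdf11 was called lower at day 7, at -0.20 (adjusted p = 0.0478), and its level at that day thus depends on the scaling. The day 5 call ended without the day 0 right pool (0.223) or the day 5 right pool (0.261), and in a fit restricted to the arrays of days 0 and 5 (0.113). The day 10 call ended without the day 0 left pool (0.0825), and also without both pools that stood apart (0.0899). At day 10, when Mstn stood 5.05-fold below day 0, Gdf11 stood 1.27-fold above it.

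Gdf11 rose in steps after day 1, by 0.45 ± 0.0935 between days 1 and 3 (adjusted p = 0.00338; 21.5% of all genes were higher) and by 0.37 ± 0.0935 between days 7 and 10 (adjusted p = 0.0209; 6.95%). The later of these steps lost its call without any 1 of its 4 pools, at 0.075 to 0.105. In the order of its day means, day 10 differed from day 0 and day 3 from day 1, and the other neighbouring days did not differ beyond their spread.

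Inhba encodes the beta A subunit, which pairs with itself to form activin A. It read 8.77 and 8.52 at day 0, 9.49 and 9.46 at day 1, 9.59 and 10.04 at day 3, 9.93 and 9.97 at day 5, 9.78 and 9.78 at day 7, 8.85 and 8.90 at day 10, and 9.14 and 9.05 at day 14. Both pools of every overload day lay above both pools of day 0, narrowly so at day 10. Inhba was higher by 0.83 ± 0.127 at day 1 (adjusted p = 0.000213), or 1.78-fold. Day 3 stood higher by 1.17 (1.33e-05), day 5 by 1.31 (5.17e-06) and day 7 by 1.14 (1.4e-05), or 2.25-, 2.47- and 2.20-fold. At day 10 the difference was 0.23 and missed the threshold (0.145), although it was called without either pool of day 3 (0.0484), and at day 14 it was 0.46 (0.0141), a call that ended without the day 0 left pool (0.113), without the day 14 right pool (0.0722) and without both pools that stood apart (0.115).

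The decline of Inhba came in a single interval. Day 10 lay below day 7 by 0.91 ± 0.127 (adjusted p = 0.00154), the 167th lowest of all genes, where 9.52% of all genes were lower. Of the 6 dividing cell markers measured, 0 were called at day 1, when Inhba was already higher, and all 6 were higher than day 0 from day 3 onward. Their summed intensities were 1404 to 2148 at day 0, 1555 to 2437 at day 1, 11050 to 12570 at day 7 and 4926 to 4996 at day 10. Of the 12 macrophage markers, 10 were higher at day 1, 12 at day 3 and 11 at days 7, 10 and 14, with sums of 4815 to 4879 at day 0, 21240 to 22140 at day 1, 33960 to 37820 at days 3 to 7, and 25030 to 26210 at day 10. No marker of either list lay in the dimmest of 3 equal classes of genes, and their part in the level of Inhba was not tested.

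Inhbb encodes the beta B subunit of activin B. It read 8.06 and 7.82 at day 0, 8.87 and 8.68 at day 1, 8.89 and 8.80 at day 3, 8.58 and 8.51 at day 5, 8.19 and 8.33 at day 7, 7.93 and 7.93 at day 10, and 7.80 and 8.02 at day 14. Its pools lay above those of day 0 from day 1 to day 7 and overlapped them at days 10 and 14. The difference was 0.83 ± 0.106 at day 1 (adjusted p = 5.32e-05) and 0.90 at day 3 (2.55e-05). Day 5 differed by 0.60 (0.000531), day 7 by 0.32 (0.0209), day 10 by -0.01 and day 14 by -0.03. The day 7 call ended without the day 0 left pool (0.172), without the day 7 left pool (0.119), without both pools that stood apart (0.147), under quantile normalization (0.0566) and in a fit of days 0 and 7 alone (0.0538). At day 7 the 95% interval of the difference from day 0 was 0.09 to 0.56 for Inhbb and 0.86 to 1.42 for Inhba; the difference between the genes was not tested.

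**Figure D2:**
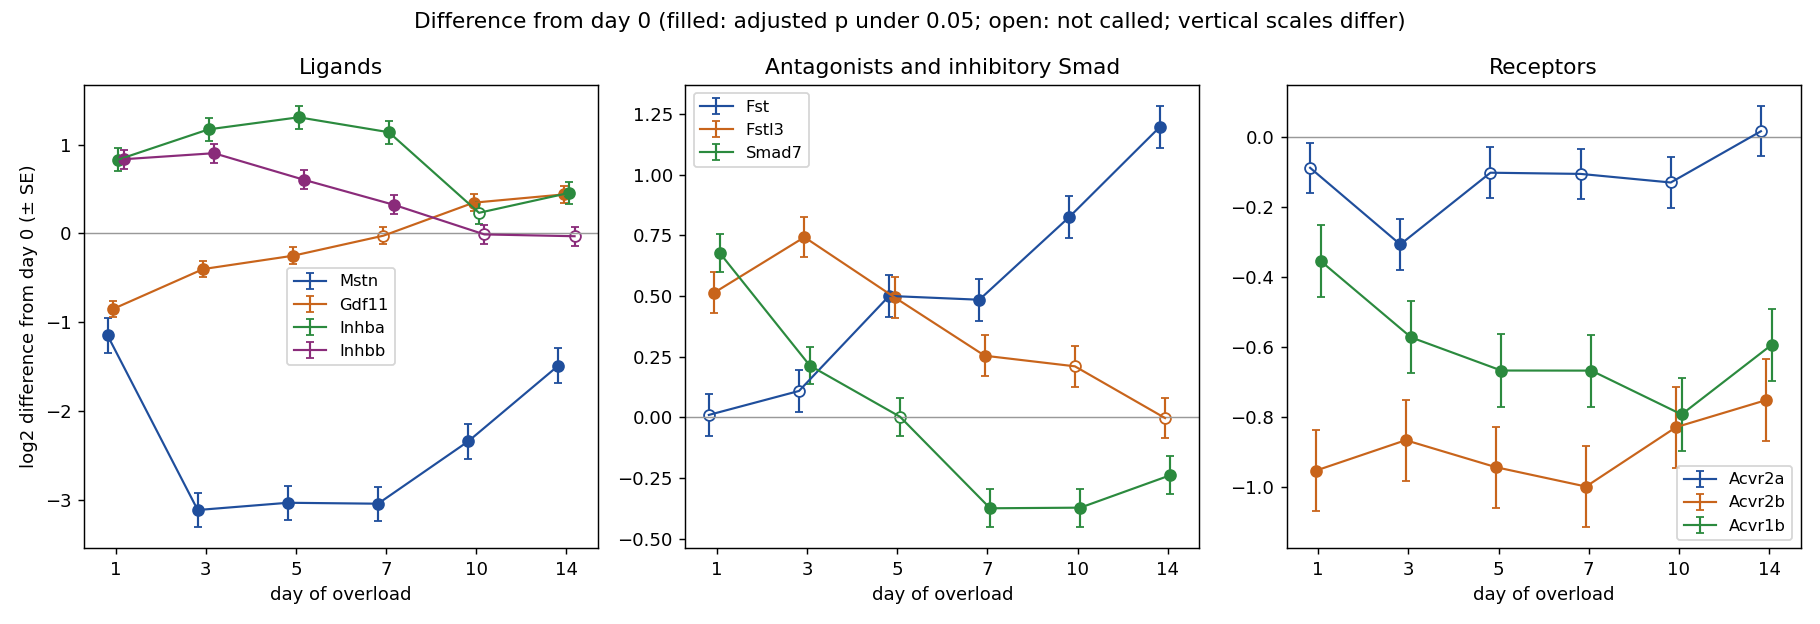
Log2 difference from day 0 (vertical axes, scales differ) of the ligand, antagonist and receptor genes at days 1 to 14 (horizontal axis); bars are ± SE from the fit, filled points were called at an adjusted p under 0.05 and open points were not. Mstn reached -3.11 at day 3, Fst climbed to 1.196 at day 14, and Acvr2b stayed between -0.998 and -0.75.

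Of the receptor genes, Acvr2b and Acvr1b were lower than day 0 at every overload day, and Acvr2a was lower at day 3 alone. Acvr2b, the type II receptor to which myostatin binds with highest affinity, read 9.09 and 8.83 at day 0, 8.11 and 7.91 at day 1, 8.16 and 8.04 at day 3, 7.99 and 8.06 at day 5, 7.83 and 8.10 at day 7, 8.08 and 8.19 at day 10, and 8.16 and 8.27 at day 14. The 12 overload pools all lay below both day 0 pools, and day 0 was the only day that differed from its neighbour in the order of the day means. The difference was -0.95 ± 0.116 at day 1 (adjusted p = 3.7e-05), reached -0.998 at day 7 (1.89e-05) and was -0.75 at day 14 (0.000347). Day 3 minus day 1 was 0.09, with a 95% interval from -0.17 to 0.34.

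Acvr1b, the type I receptor also called ALK4, read 10.11 and 9.86 at day 0, 9.67 and 9.59 at day 1, 9.46 and 9.36 at day 3, 9.26 and 9.37 at day 5, 9.38 and 9.25 at day 7, 9.26 and 9.13 at day 10, and 9.30 and 9.49 at day 14. Each overload pool lay below both day 0 pools. The difference was -0.35 ± 0.103 at day 1 (adjusted p = 0.0129), and those of days 3, 5 and 7 were -0.57, -0.67 and -0.67. Day 10 differed by -0.79 (6.77e-05) and day 14 by -0.59 (0.000791). The day 1 call ended without the day 0 right pool (0.117), without the day 1 left pool (0.0682) and in a fit of days 0 and 1 alone (0.0586), whereas the later ones held. No step between consecutive days after day 1 was called.

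Acvr2a, the other type II receptor, varied least of the 10, with day means spanning 0.32. It read 9.86 and 9.88 at day 0, 9.79 and 9.77 at day 1, 9.55 and 9.57 at day 3, 9.72 and 9.81 at day 5, 9.83 and 9.70 at day 7, 9.78 and 9.70 at day 10, and 9.84 and 9.93 at day 14. The day 3 pools were the lowest of all 14. At day 3 the difference from day 0 was -0.31 ± 0.0721 (adjusted p = 0.00413), and at the other days it lay between -0.13 and 0.02 and missed the threshold. Under quantile normalization Acvr2a was called lower at days 1, 5, 7 and 10 as well, at -0.17 (0.0252), -0.22 (0.00647), -0.23 (0.00435) and -0.20 (0.0129), so its level at those days depends on the scaling of the arrays. The step between days 1 and 3 (-0.22, adjusted p = 0.036) was lost without any 1 of its 4 pools, without both pools that stood apart (0.14) and in a fit of days 1 and 3 alone (0.0821).

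The antagonist genes were higher over different but overlapping days. Fstl3 was called higher from day 1 to day 7 and Fst from day 5 to day 14, so that both were higher at days 5 and 7. Fst encodes follistatin, which binds activins nearly irreversibly and also blocks myostatin. It read 9.18 and 9.13 at day 0, 9.14 and 9.19 at day 1, 9.22 and 9.31 at day 3, 9.56 and 9.75 at day 5, 9.60 and 9.68 at day 7, 9.91 and 10.05 at day 10, and 10.29 and 10.41 at day 14. The pools of day 1 overlapped those of day 0, and from day 3 onward both pools lay above them. The difference was 0.01 ± 0.0872 at day 1 and 0.11 at day 3. Day 5 stood higher by 0.50 (adjusted p = 0.000483), day 7 by 0.48 (0.000565), day 10 by 0.83 (1.35e-05) and day 14 by 1.196 (1.24e-06), or 2.29-fold.

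Fst took further steps upward to the last day measured. It was higher at day 5 than at day 3 by 0.39 ± 0.0872 (adjusted p = 0.0178; 6.41% of all genes), at day 10 than at day 7 by 0.34 (0.0221) and at day 14 than at day 10 by 0.37 (0.0395; 2.11%). The first of these steps lost its call without the day 3 right pool or the day 5 left pool (0.131 each) and in a fit of days 3 and 5 alone (0.061), and the second without the day 7 right pool (0.164) or the day 10 left pool (0.169). The third lost it without a pool of day 0, 3, 7, 10 or 14, at 0.0501 to 0.236, without both pools that stood apart (0.0513) and in a fit of days 10 and 14 alone (0.0686). The calls against day 0 from day 5 held in each of these cases. Markers of fibro-adipogenic progenitors and fibroblasts rose over the same days: 7 of 7 measured were higher from day 5 onward, with summed intensities of 31840 and 33530 at day 14, against 11350 and 10620 at day 0. Of the 5 tendon markers, 5 were higher at day 14 (summed 26790 and 26080, against 8200 and 7683 at day 0). No marker of these lists lay in the dimmest of 3 equal classes of genes, and their part in the rise of Fst was not tested.

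Fstl3, a follistatin relative that also binds activins and myostatin, read 8.93 and 8.91 at day 0, 9.33 and 9.53 at day 1, 9.66 and 9.66 at day 3, 9.39 and 9.43 at day 5, 9.16 and 9.18 at day 7, 9.11 and 9.14 at day 10, and 9.01 and 8.82 at day 14. Both pools lay above day 0 from day 1 to day 10 and the day 14 pools enclosed the day 0 level. It was higher by 0.51 ± 0.0835 at day 1 (adjusted p = 0.000333) and 0.74 at day 3 (1.75e-05), and then by 0.49 on day 5 (0.000385) and 0.25 on day 7 (0.0201). The difference of 0.21 at day 10 missed the threshold (0.0552), although it was called when the dimmest of 3 equal gene classes was dropped (0.0376), with a trended variance prior (0.0498), with a pseudocount of 32 (0.0468) and without any 1 pool of day 1 (0.0392) or 14 (0.042). The day 7 call ended when any pool of day 0 or 7 was left out (0.0545 to 0.0743), without both pools that stood apart (0.0545) and under quantile normalization, where the difference was 0.07. At day 14 the difference from day 0 was 0.00, with a 95% interval from -0.19 to 0.18.

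Smad7, which targets the type I receptors for degradation and is itself switched on by Smad signalling, was higher at day 1 and lower from day 7. It read 9.07 and 9.03 at day 0, 9.66 and 9.79 at day 1, 9.29 and 9.23 at day 3, 9.08 and 9.02 at day 5, 8.70 and 8.64 at day 7, 8.75 and 8.60 at day 10, and 8.76 and 8.86 at day 14. Day 1 pools were the highest of the 14, the day 5 pools enclosed those of day 0, and all 6 pools of days 7 to 14 lay below day 0. The differences were 0.68 ± 0.0779 at day 1 (adjusted p = 2.42e-05) and 0.21 at day 3 (0.042). Day 7 stood lower, with a difference of -0.37 (0.00154), as did day 10 with -0.37 (0.00213) and day 14 with -0.24 (0.0296).

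Smad7 dropped between days 1 and 3 by 0.46 ± 0.0779 (adjusted p = 0.000881). The fall between days 5 and 7 (-0.38, adjusted p = 0.0473; 0.487% of all genes were lower) was lost without any 1 pool of a day other than day 1, at 0.0617 to 0.285, without both pools that stood apart (0.0517), with side as a block (0.0745) and in a fit of days 5 and 7 alone (0.182). Its day 3 call ended without any pool of day 0, 3 or 7 (0.0517 to 0.165), without both pools that stood apart (0.144), under quantile normalization (0.32) or equal array medians (0.0697), with side as a block (0.0547) and in a fit of days 0 and 3 alone (0.0829). The day 14 call ended without either pool of day 0 (0.11 and 0.0714), without the day 14 right pool (0.148), without both pools that stood apart (0.0683) and in a fit of days 0 and 14 alone (0.0826). The calls of days 1, 7 and 10 held in all these settings.

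Set side by side, the 10 genes turned at different days. Between days 1 and 3, Mstn, Acvr2a and Smad7 were lower and Gdf11 was higher. The steps of Inhba (0.34, adjusted p = 0.0603) and Fstl3 (0.23, adjusted p = 0.0546) between days 1 and 3, and of Inhbb between days 7 and 10 (-0.33, adjusted p = 0.0568), missed the threshold, and each passed it when the dimmest genes were dropped (0.0416, 0.0331 and 0.0341). Between days 7 and 10, Mstn, Gdf11 and Fst were higher and Inhba was lower (6.95% and 9.52% of all genes). Between days 10 and 14, Mstn and Fst were higher (2.11%) and none of the 10 was lower (2.56%). At day 14, Inhbb, Fstl3 and Acvr2a had differences from day 0 of -0.03, 0.00 and 0.02, while Mstn, Acvr2b, Acvr1b and Smad7 were still lower and Gdf11, Inhba and Fst higher. Between right and left pools limma called none of the 10 genes and 0% of all genes. At an unadjusted p under 0.05 there was 1 of the 10, Fst, with a difference of right minus left pools of -0.09 ± 0.0394 by limma (unadjusted p = 0.0432). The right pool had the lower Fst level on 6 of 7 days.

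The genes whose levels ran most like those of Mstn over the 14 arrays were sought among 4173 genes that were not dim and whose day means also spanned more than 1. Phkb, a subunit of the phosphorylase kinase that starts glycogen breakdown, had a Pearson r of 0.995 with Mstn (Spearman rho 0.996). Ube2g1, a ubiquitin-conjugating enzyme, had 0.994, and Sar1b, a GTPase of vesicle traffic out of the endoplasmic reticulum, had 0.992. Their own falls were smaller, with day means of 11.01, 10.77 and 12.21 at day 3, against 12.80, 11.78 and 13.61 at day 0. For Gdf11 the 3 most alike were Dnajc18 (0.972), Trib2 (0.97) and Lrrc55 (0.97).

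The genes most like Inhba were Steap1 (0.966), the chromatin protein gene Hmgb2 (0.949) and Plau (0.944), which encodes urokinase, a protease of the plasminogen system. Those most like Fst were Sfrp4, a secreted Wnt antagonist (0.971), Fbln7 of the extracellular matrix (0.966) and Pi15 (0.963). Sfrp4 had day means of 11.58 at day 14, against 8.16 at day 0, and Fst had 10.35 at day 14, against 9.15 at day 0. Most like Smad7 were Cebpb, a transcription factor of the acute response (0.983), Anxa7 (0.981) and Egln3, an oxygen-sensing hydroxylase (0.979). All of these are Pearson r over 14 arrays that share days and pools, picked as the highest of many, and they describe likeness of time course only.

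**Figure D3:**
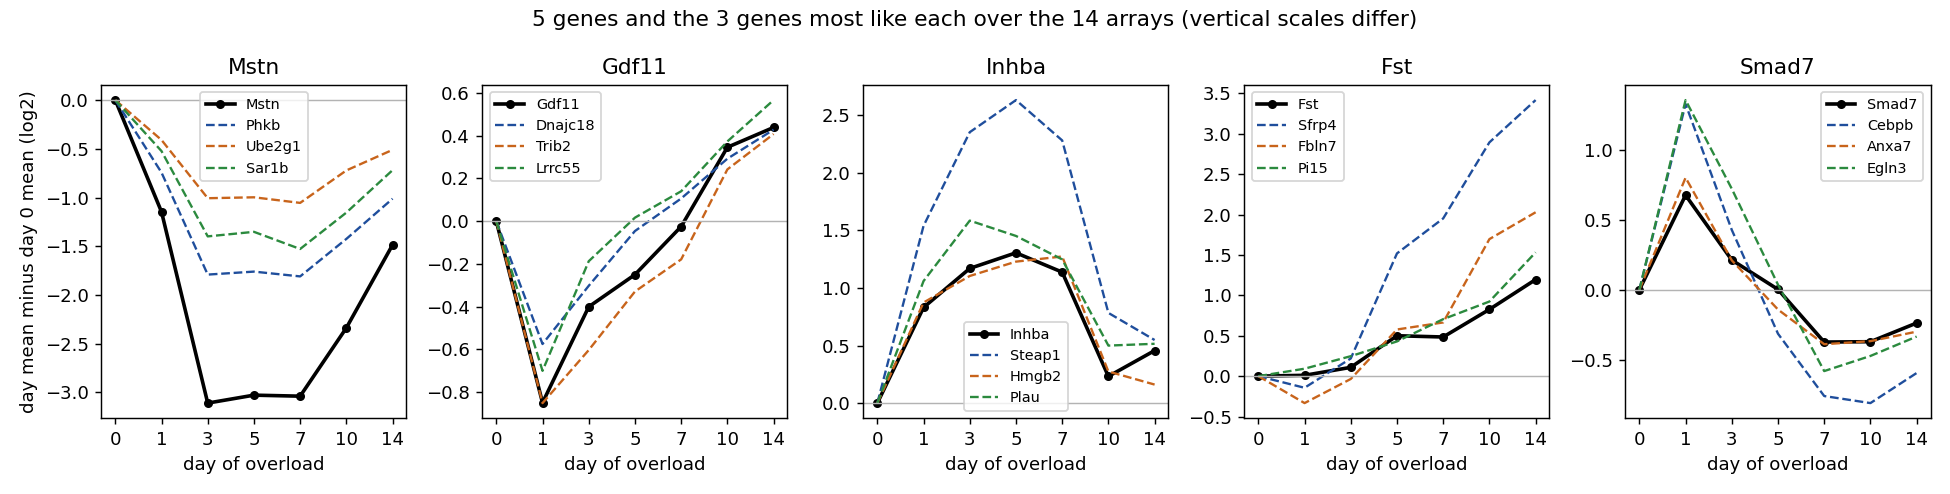
Day mean minus the day 0 mean on the log2 scale (vertical axes, scales differ) of 5 genes of the axis (black, points) and of the 3 genes with the highest Pearson r with each over the 14 arrays (dashed), against day of overload (horizontal axis). Phkb, Ube2g1 and Sar1b follow the shape of Mstn with smaller differences, and Sfrp4 follows Fst with larger ones.

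Around these 10 genes, 60 other genes of the pathway were listed, of which 56 were measured. Of the 56, 20 were higher and 19 lower at day 1, 24 and 13 at day 3, 31 and 21 at day 5, 31 and 17 at day 7, 31 and 15 at day 10, and 29 and 11 at day 14. Their median difference went with the days as -0.07, 0.14, 0.29, 0.36, 0.29 and 0.30, beside medians over all genes between -0.16 and -0.07. These counts stand beside the shares of all genes given with the 10 genes, and no test compares the lists with other genes.

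Of the 8 other ligands measured, 4 were higher and 3 lower at day 7. Tgfb1, the prototype of the family, was higher at every overload day, by 1.11 ± 0.0874 at day 1 and 2.13 at day 3 (adjusted p = 1.07e-08). Tgfb3 was lower at day 1 (-1.22 ± 0.0786, adjusted p = 2.68e-07) and higher from day 5, with 1.22 at day 10. Inhbc and Inhbe, the activin subunit genes known from liver, were lower at day 7 by 1.09 ± 0.369 (adjusted p = 0.0228) and 0.72 ± 0.15 (0.00152). The hepatocyte markers, of which 11 of 13 measured were lower at day 7, had summed intensities of 10310 and 6378 at that day, against 19510 and 76030 at day 0. None of these markers lay in the dimmest of 3 equal classes of genes, and their part in the Inhbc and Inhbe values was not tested. Inhbe itself did lie in the dimmest class, with day means of 7.69 at day 0 and 6.97 at day 7.

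Of the 9 other receptors and coreceptors, 5 were higher and 1 lower at day 7. Tgfbr2, the type II receptor of the transforming growth factors, was higher by 1.44 ± 0.0708 at day 7 (adjusted p = 2.59e-08), and its partner Tgfbr1 by 0.54 ± 0.0778 (0.000114). Bmpr2, the type II receptor of bone morphogenetic proteins, was lower by 0.62 ± 0.0638 at day 3 (8.64e-06). At day 1 the bone morphogenetic protein receptor gene Acvr1 was lower by 0.55 ± 0.0635 (2.69e-05). Tgfbr1, which can also serve myostatin as a type I receptor, was higher at all 6 overload days, and Acvr2b and Acvr1b were lower at all 6.

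Among 13 genes listed as extracellular regulators, 8 were lower and 3 higher at day 1, and 4 lower and 5 higher at day 7. Fstl1, which carries the follistatin name but is known for other partners, was higher by 2.53 ± 0.0768 at day 7 (adjusted p = 1.3e-09). Bmp1, a protease of the group that frees latent myostatin from its propeptide, was higher by 2.02 ± 0.0738 at day 7 (3.88e-09), and its relative Tll1 by 0.76 ± 0.0876 at day 1 (2.57e-05), as was Furin, the protease that cleaves the precursors, by 0.75 ± 0.0795 (1.3e-05). Wfikkn2, a secreted protein that binds myostatin and Gdf11, was lower at each overload day, by 1.36 ± 0.0815 at day 7 (1.03e-07). Tcap, the titin cap protein that also binds myostatin, was lower by 2.44 ± 0.155 at day 7 (1.59e-07). It lies inside the fibre, although it was counted in this list.

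Of 13 Smads and cofactors, 8 were higher and 5 lower at day 7, and none was uncalled on that day. Tgif1, a corepressor of Smad transcription, was higher by 2.41 ± 0.0926 at day 1 (adjusted p = 5.85e-09), and Skil, another, by 1.00 ± 0.11 (1.79e-05). Zfyve9, the anchor that presents Smad2 to receptors, was lower by 1.48 ± 0.104 at day 3 (4.17e-07). Smad6, the inhibitory Smad of the bone morphogenetic branch, was lower at every overload day, by 0.73 ± 0.098 at day 1 (8.1e-05), when Smad7 was higher. Smad1 was higher by 0.89 ± 0.0711 at day 7 (9.1e-07).

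Of 8 genes known as targets of Smad2 and Smad3, 6 were measured; 5 of the 6 were higher at day 1 and 6 of 6 at each later day, with a median of 1.05 at day 1 and 1.37 at day 7. Tgif1 and Skil are also in the list of Smads and cofactors. Tgfbi, a matrix protein named for its induction, was higher by 2.36 ± 0.0922 at day 3 (adjusted p = 8.12e-09). Col1a1, collagen of fibroblasts, was higher by 3.03 ± 0.0945 at day 7 (1.43e-09), and Ccn2, a matricellular growth factor, by 1.34 ± 0.0745 at day 14 (1.82e-07). The fibroblast markers described beside Fst rose over the same days, 7 of 7 at day 7 with summed intensities of 28390 and 28010, against 11350 and 10620 at day 0, and their part in these targets was not tested.

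Of 9 muscle genes downstream of the pathway, 5 were higher and 4 lower at day 7. Myog, the myogenic factor of differentiating myoblasts, was higher by 3.02 ± 0.168 at day 7 (adjusted p = 5.9e-08), and Myod1 by 1.26 ± 0.122 at day 3 (5.49e-06). Both ubiquitin ligase genes of muscle atrophy were higher at day 1 and lower from day 5. Trim63 differed by 1.77 ± 0.0938 at day 1 (6.76e-08) and -1.27 at day 7 (4.81e-07). Fbxo32 differed by 0.30 ± 0.0801 at day 1 (0.00907) and -1.89 at day 7 (9.47e-09), and it was already lower at day 3, by 1.02 (9.91e-07), where Trim63 was not called. Akt1, a kinase of the growth pathway that myostatin restrains, was higher by 1.12 ± 0.0785 at day 7 (3.37e-07). Satellite cell and myoblast markers, 7 of 8 of which were higher and 1 lower at day 7, had summed intensities of 12780 and 11460 then, against 3743 and 3808 at day 0. Among the 8, only Calcr lay in the dimmest of 3 equal classes of genes. Myog and Myod1 belong to that list too.

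**Figure D4:**
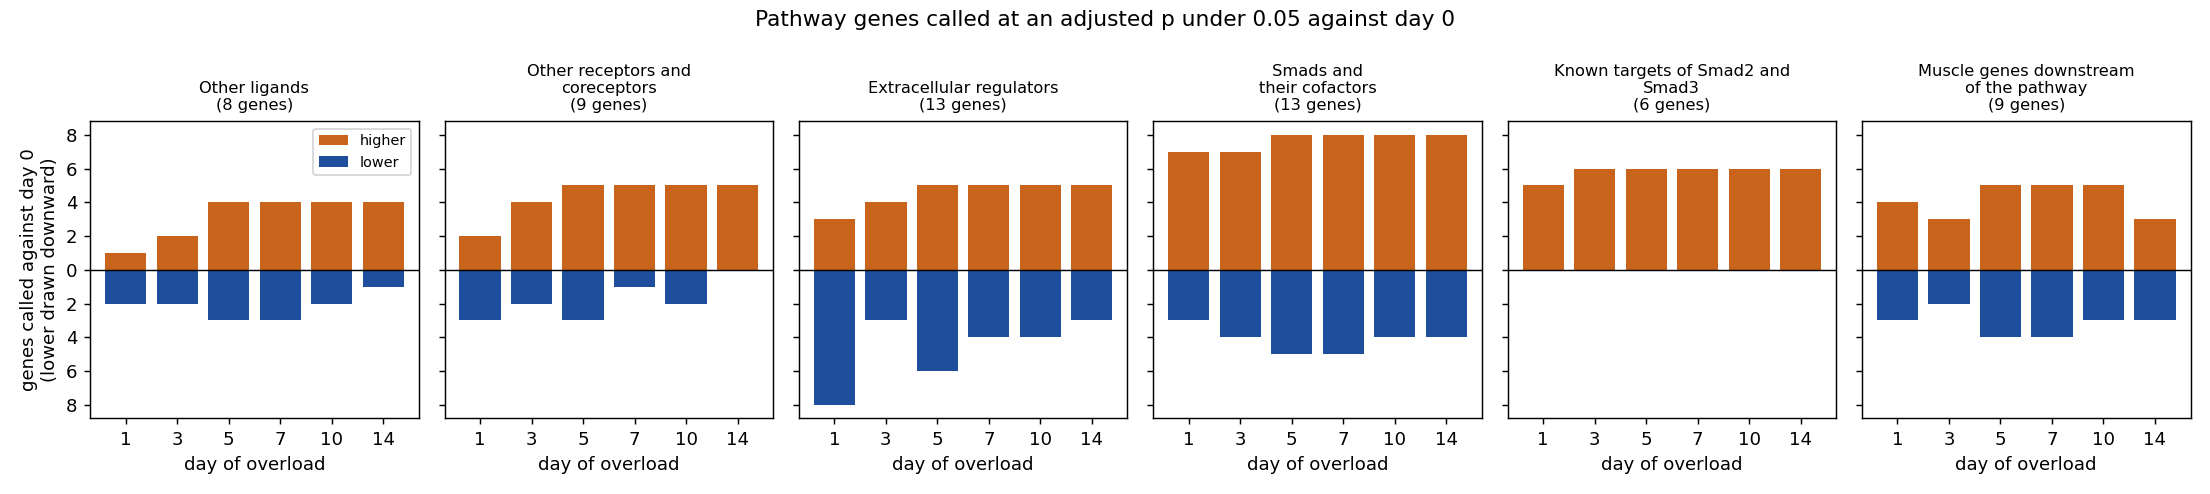
Number of genes called higher (upward bars) or lower (downward bars) than day 0 at an adjusted p under 0.05 (vertical axis, genes) in 6 pathway lists at days 1 to 14 (horizontal axis). The 6 measured targets of Smad2 and Smad3 were all called higher from day 3, and the list of extracellular regulators, which includes Tcap, had 8 lower at day 1.

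**Figure D5:**
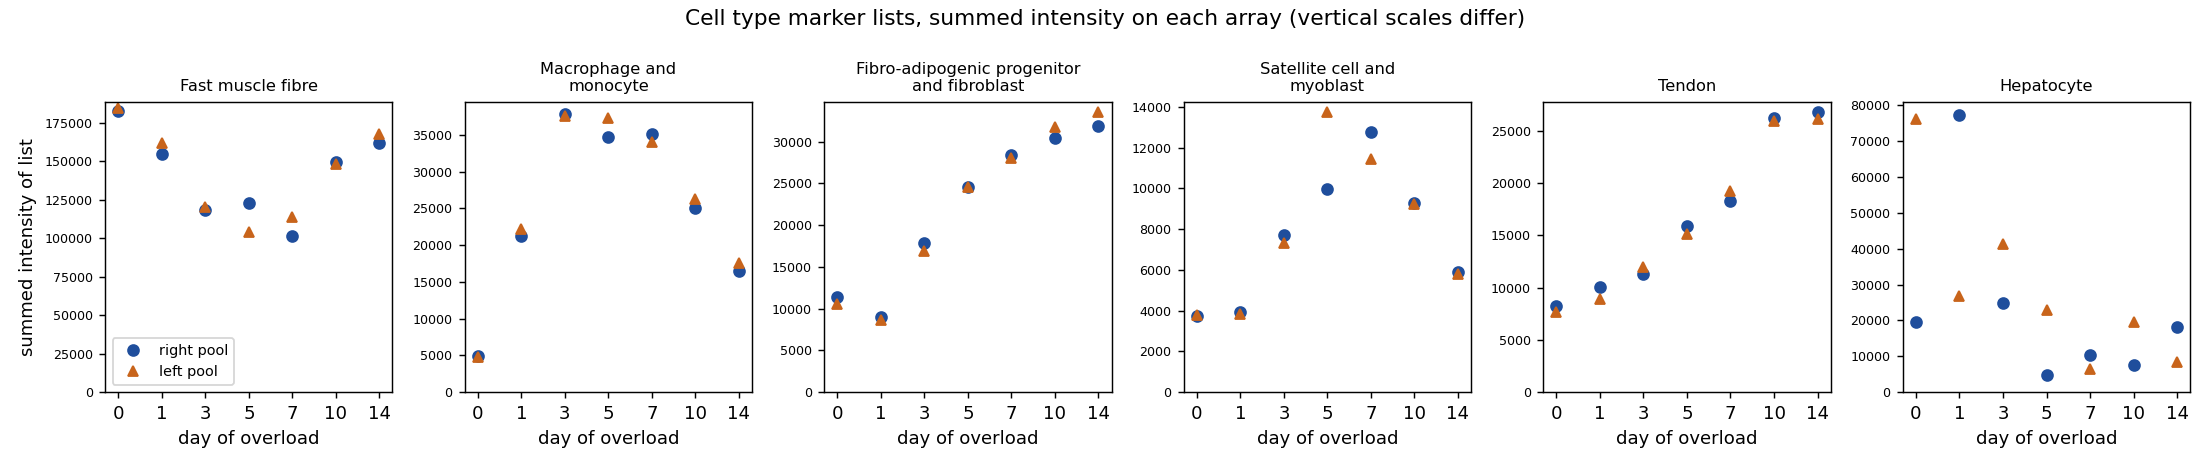
Summed linear intensity of 6 cell type marker lists (vertical axes, scales differ) on each array against day of overload (horizontal axis); circles are right pools and triangles left pools. Fast fibre sums had their lowest day means at days 5 and 7, macrophage sums were highest at days 3 to 7, fibroblast and tendon sums highest at days 10 and 14, and the hepatocyte sums were highest in the day 0 left pool and the day 1 right pool.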

How the data were processed

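The 14 RNA pools were each hybridised to an Affymetrix Mouse Gene 1.0 ST array; total RNA is given as 100 ng by the design text and as 250 ng by the labelling protocol. The deposited values are 1 linear intensity per probe set, made by the authors with Partek per the submitters' processing notes, with version and normalization not given in the sources used here. Array medians of 242.8 to 254.9 were close to each other, which does not show that the arrays share a scale at all intensities. Of 35556 probe sets, 21789 carried 1 symbol in the probe annotation, 1621 several, and 12146 were not listed there. The brightest probe set was used for the 999 genes with several, which left 19938 genes.

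Log2 of the deposited intensity was fitted without further normalization with limma 3.58.1 (R 4.3.3), a mean for each day, 7 residual degrees of freedom and two-sided moderated tests. Benjamini-Hochberg adjustment ran over the 19938 genes of a comparison. The 21 pairs of days share arrays and their results are not independent of each other. Deviations of same-side pools correlated between -0.583 and 0.438, over 0.1 in 9 of 21 pairs of days. The lowest value was that of days 0 and 1, whose pools richest in hepatocyte signal were of opposite sides. Uneven hepatocyte signal thus cannot be told apart from side here, and whether same-side pools pair across days was not settled. The fit was tested on simulated intensities. Promoters are RefSeq sequences. Sequence for Fst was not used here, and none is shown for Smad7.

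The 10 genes and all lists were chosen with earlier results of these data known. Besides the 10 genes, genes were named by rule: per pathway list and day the called genes with the largest changes, up to 2 each way; the 3 genes most like each of the 5 genes whose day means spanned over 1; and up to 3 of the brightest markers per cell type list. Gene models, receptor families, small RNAs and Y-linked genes were not named. Alternatives tried were quantile normalization, equal array medians, omission of the dimmest of 3 equal classes of genes, other choices among a gene's probe sets, trended or robust variance priors, side as a block, fits restricted to the 2 days in question, a 2-fold threshold, an adjusted p under 0.01, a pseudocount of 32, and omission of each pool in turn or of the day 0 left pool with the day 1 right pool. That last fit sets a day 1 left pool against a day 0 right pool, and in it day cannot be told apart from side.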

Additional observations from a re-analysis of the deposited data

How the results depend on the processing

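The number of arrays, not a depth, limits these values: each day has 2 pools, and a day left with 1 pool borrows its spread from the others. Of 110 differences of the 10 genes, 96 kept direction and call under quantile normalization, 107 with equal array medians, 106 with the dimmest of 3 equal gene classes dropped, 110 with the mean or the least bright of a gene's probe sets, 107 with a trended and 110 with a robust variance prior, 107 with a pseudocount of 32, 100 with fits restricted to the days in question, 95 at an adjusted p under 0.01, 63 at 2-fold and 99 without the pools richest in hepatocyte signal, day 0 left and day 1 right. The replicate block by side kept 108; it ended the calls of Smad7 at day 3 against day 0 (adjusted p = 0.0547) and of Smad7 at day 7 against day 5 (0.0745), so that 0 genes were lower in that step, and changed no other call of the 10 genes. The choice among probe sets could not change the levels of the 10 genes, as each has 1 probe set. The 110 kept there therefore says nothing about them. The causes of the changed calls were not tested.

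Requiring 2-fold left, higher and lower against day 0, 0 and 1 of the 10 genes at day 1, 1 and 1 at day 3, 1 and 1 at day 5, 1 and 1 at day 7, 0 and 1 at day 10, and 1 and 1 at day 14; of the 56 pathway genes it left 5 and 3, 10 and 4, 12 and 5, 13 and 6, 10 and 4, and 9 and 2. Between consecutive days it left 0 of the 10 genes, except 1 lower from day 1 to day 3. An adjusted p under 0.01 left 2 of the 10 genes higher at day 7, 11 pathway genes lower at day 1 and 9 at day 10, and 0 members in the steps to days 5, 7 and 14 and higher to day 10; of 60 neighbouring pairs of days in the order of the means, 6 differed, against 14 at 0.05. Quantile normalization left 2 higher and 6 lower at day 7. Apart from the 2-fold rule against day 0, no share of all genes was taken under these settings. The counts in this section are therefore not read as a result about the 10 genes. In the step to day 3, 3 were higher with the trended prior and 2 with the pseudocount; 2 were lower in the step to day 10 with the pseudocount. With those restricted fits, the steps to days 5 and 7 had 0 calls, that to day 10 had 2 lower and that to day 14 had 1 higher. Without the hepatocyte-rich pair, 2 were higher at day 7 and 1 at day 10, the step to day 7 had 0 lower, that to day 10 had 2 lower and that to day 14 had 1 higher, and 9 neighbouring pairs differed.

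Differences that changed sign lay near 0 and were not called. Under quantile normalization, Fst was -0.0686 at day 1 and -0.0134 at day 3, Smad7 -0.15 at day 5 and Acvr2a -0.0563 at day 14, and day 10 minus day 7 was 0.0343 for Acvr2a and 0.0164 for Fstl3. With equal array medians Smad7 was -0.0173 at day 5 and Acvr2a -0.0233 at day 14, and without the hepatocyte-rich pair Smad7 was -0.0160 at day 5.

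Leaving out 1 pool at a time, the counts of the 10 genes ranged from 2 to 4 higher at day 7 (2 without the day 0 left pool or of day 7) and 1 to 3 higher at day 10 (1 without the day 0 left pool). In steps between days they ranged from 1 to 2 higher to day 3, 0 to 1 higher to day 5, 0 to 1 lower to day 7, 0 to 3 higher and 1 to 2 lower to day 10, and 0 to 2 higher to day 14. Pathway genes lower at day 10 ranged from 9 to 16, with 9 without the day 10 right pool. Against day 0, these ranges crossed 0: Gdf11 at day 7 (-0.11 to 0.0638), Inhbb at day 10 (-0.13 to 0.11) and day 14 (-0.15 to 0.0887), Fstl3 at day 14 (-0.0991 to 0.0934), Fst at day 1 (-0.0165 to 0.0364), Smad7 at day 5 (-0.0257 to 0.0309) and Acvr2a at day 14 (-0.0272 to 0.0613). Between days, so did Inhbb (-0.0268 to 0.16) and Acvr2b (-0.0150 to 0.19) from day 1 to 3, Mstn (-0.24 to 0.40) and Inhba (-0.0896 to 0.36) from day 3 to 5, and Mstn (-0.33 to 0.31), Acvr2a (-0.0669 to 0.0601), Acvr1b (-0.0657 to 0.0651), Fst (-0.11 to 0.0800) and Acvr2b (-0.19 to 0.0774) from day 5 to 7. The others were Acvr2a (-0.0881 to 0.0390) and Smad7 (-0.0712 to 0.0762) from day 7 to 10 and Inhbb (-0.13 to 0.0896) from day 10 to 14.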

Other observations

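Among the cell type lists not set beside a gene of the axis, neutrophil markers were higher early. At day 1, 7 of 7 neutrophil markers were higher, with sums of 13030 and 26310, against 3201 and 1733 at day 0, and at day 14, 0 of 7 were called. Of the 5 adipocyte markers measured, 4 were lower at day 7 and 2 at day 14, and of the 4 Schwann cell markers 4 were lower at day 7 and 1 at day 14. Endothelial markers went both ways, with 4 higher and 2 lower of 7 at day 7. No explanation was tested for these values.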
